A study of Mus musculus with 2 samples.

Results

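The genes described here encode S100 proteins and annexins, both families of calcium-dependent adaptor proteins. They are the 10 rows of the deposited count table whose symbols are S100a4, S100a6, S100a10, S100a11 and S100a13 (5 S100 genes) and Anxa1, Anxa2, Anxa4, Anxa5 and Anxa6 (5 annexin genes), out of 23337 rows in all. They were measured by RNA-seq in regulatory T (Treg) cells, CD4 T cells that restrain immune responses and carry the transcription factor Foxp3, sorted from injured skeletal muscle. The design asks how added IL-33, a cytokine that damaged tissue releases, alters gene expression in muscle Treg cells. The IL-33 group had cardiotoxin, a venom protein that destroys myofibres, together with 0.3 ug of recombinant IL-33 injected into 3 hindlimb muscles, and the PBS group had cardiotoxin together with PBS. Both groups were male mice aged 8 weeks of the strain Foxp3-IRES-GFP/C57BL/6, whose green fluorescent protein marks Foxp3 expression, and 5000 Treg cells per library were collected on day 4 after injury. Uninjured muscle is in neither group, and neither the number of mice per library nor the gating of the sort is given in the sources used here.

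Each group held 1 library, so the differences below have no replicate check: "with IL-33" and "with PBS", like "higher" and "lower", stand for these 2 libraries and not for the treatments. Totals were 4080791 counts with IL-33 and 1573707 counts with PBS, so the first was 2.59 times as deep. Foxp3, the defining gene of the labelled cell type, had only 40 counts with IL-33 and 1 with PBS, so this marker was nearly absent from the PBS library, while Ctla4 and Ikzf2, which Treg cells also carry, were abundant in both. Levels are given as CPM, in which each count is divided by the total of its library and multiplied by a fixed factor, and intervals are exact 95% intervals that cover counting error only. All 10 genes passed the floor of 5 CPM in at least 1 library that was set for the comparison. With bulk RNA, fewer cells that carry a transcript and less of it per cell cannot be told apart.

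S100 proteins are small EF-hand proteins that mostly form dimers, and on binding calcium they open a surface that grips partner proteins. Annexins bind acidic phospholipids in the presence of calcium and tie membranes to the actin skeleton, to vesicles and to sites of membrane damage. The families meet in defined complexes: S100A10, which is held in an active shape without calcium, pairs with annexin A2 under the plasma membrane, and S100A11 pairs with annexin A1. In T cells, several genes of both families are more abundant in effector and memory cells than in naive cells.

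The upstream sequences of 3 S100 genes with higher levels with IL-33 and of Anxa4, the annexin gene that was lowest there relative to PBS, show what stands before their starts. They are RefSeq sequences of build GRCm38.p6, read 5′ to 3′ on the strand of the gene, and they stop short of annotated exons. The stretches are chr3:90603520-90603769 for S100a4, chr3:90612644-90612881 for S100a6 and chr3:93520246-93520487 for S100a11, all on the plus strand, and chr6:86793585-86793834 on the minus strand for Anxa4 (the upstream of its 2 listed starts). Capitals mark TATAAA in S100a4, TGANTCA (the AP-1 motif) and GGGCGG (the Sp1 motif) in S100a11, and a match to the NF-kB motif in Anxa4.
S100a4: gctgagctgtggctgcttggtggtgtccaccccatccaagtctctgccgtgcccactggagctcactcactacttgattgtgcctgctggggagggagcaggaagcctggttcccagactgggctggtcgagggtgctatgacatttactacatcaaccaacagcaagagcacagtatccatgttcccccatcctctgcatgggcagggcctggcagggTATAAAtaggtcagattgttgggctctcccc
S100a6: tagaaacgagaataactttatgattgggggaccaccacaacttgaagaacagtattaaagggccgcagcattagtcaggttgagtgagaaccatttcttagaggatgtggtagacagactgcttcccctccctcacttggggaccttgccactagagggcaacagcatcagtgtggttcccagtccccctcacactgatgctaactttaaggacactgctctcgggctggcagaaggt
S100a11: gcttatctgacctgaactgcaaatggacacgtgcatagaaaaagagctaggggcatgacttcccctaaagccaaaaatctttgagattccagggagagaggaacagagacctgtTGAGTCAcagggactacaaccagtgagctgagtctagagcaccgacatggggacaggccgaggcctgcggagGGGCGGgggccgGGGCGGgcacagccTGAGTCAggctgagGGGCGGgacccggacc
Anxa4: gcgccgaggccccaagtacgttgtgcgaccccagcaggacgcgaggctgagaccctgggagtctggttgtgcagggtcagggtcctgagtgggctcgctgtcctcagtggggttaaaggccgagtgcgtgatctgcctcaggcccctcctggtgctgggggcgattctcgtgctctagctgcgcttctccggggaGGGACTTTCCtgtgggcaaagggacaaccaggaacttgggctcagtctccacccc

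Of the 10 genes, 8 had an upstream window in the RefSeq table, and S100a10 and Anxa6 had none. On both strands of the 250 bases before the start, the AP-1 motif was found in 2 of the 8 genes, S100a11 with 2 matches and Anxa2 with 1, and in 6.75% of all 32851 windows of this length. TATAAA was found in 3 of the 8 (S100a4, Anxa1 and Anxa2) and in 12.4% of all windows, and the Sp1 motif in 2 of the 8 (S100a11 and Anxa2) and in 32.7% of all windows. Annotated exons cover all 250 bases of the Anxa1 window. They also cover 63 bases of the Anxa2 window, and its TATAAA match lies within those. The NF-kB motif was found in Anxa4 alone of the 8 and in 3.9% of all windows, and the STAT motif TTCNNNGAA in 0 of the 8 and in 7.02% of all windows. Anxa4 has 2 windows, and the NF-kB match is in the upstream one and not in the other. A gene was counted if any of its windows matched, while the share over all windows is per window. Each motif was searched on its own, and no 2 of the marked matches share a base. The neighbouring genes S100a4 and S100a6 shared none of these motifs.

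S100 transcripts were among the most abundant in the cells, and all 5 S100 genes stood higher with IL-33 than with PBS, by 1.20 to 1.83 times. Among the annexins, Anxa1 was 5.32 times as high, Anxa4 was at 0.420 times the PBS level, and Anxa2, Anxa5 and Anxa6 were at 0.755 to 0.911 times. Summed over the 5 S100 genes, the level was 4109 CPM with IL-33 and 2813 CPM with PBS, a ratio of 1.46 (1.41 to 1.51). Summed over the 5 annexin genes it was 758 CPM with IL-33 and 919.5 CPM with PBS, a ratio of 0.825 (0.774 to 0.878).

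**Figure D1:**
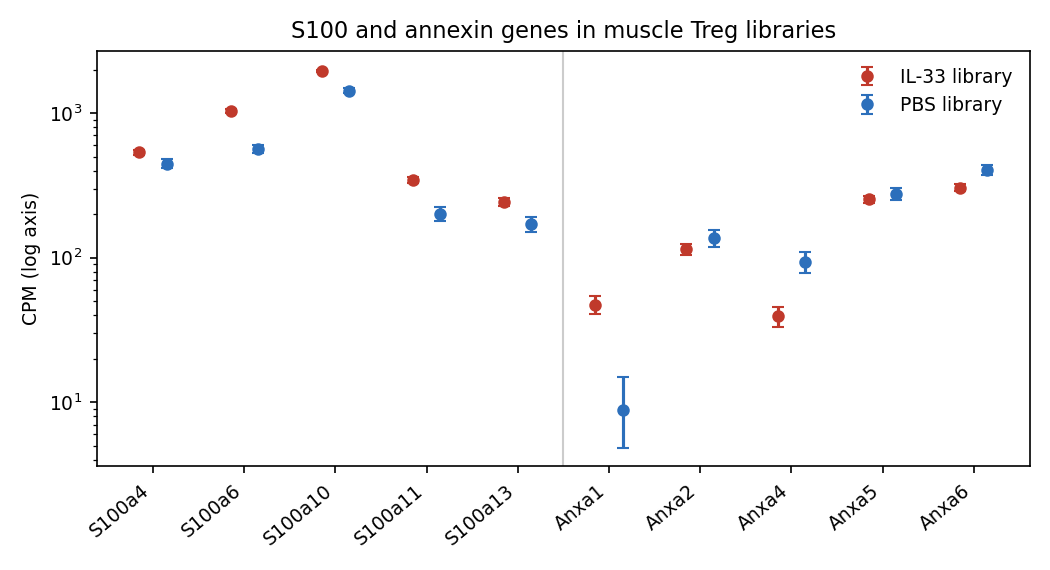
CPM of each member (log axis) in the IL-33 library (red, left of each pair) and the PBS library (blue), 1 library each; bars are exact 95% Poisson intervals of the count. Each of the 5 S100 genes is higher with IL-33, while of the annexins Anxa1 alone is higher there, at 47.3 CPM against 8.90 CPM.

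S100a10, the annexin A2 partner, was the most abundant member (ENSMUSG00000041959.14, chromosome 3, 93555080 to 93564643, plus strand). It had 7970 counts, or 1953 CPM, with IL-33 and 2248 counts, or 1428 CPM, with PBS, a ratio of 1.37 (1.30 to 1.43). The 2 intervals of the level, 1910 to 1996 CPM with IL-33 and 1370.0 to 1489 CPM with PBS, do not overlap. S100a10 alone took 0.195% of all counts with IL-33 (Wilson 95% interval 0.191 to 0.200) and 0.143% with PBS (0.137 to 0.149).

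S100a6, or calcyclin, had the highest ratio of the 5 (chromosome 3, 90612882 to 90624181). It was at 1034 CPM (4219 counts) with IL-33 and 566 CPM (891 counts) with PBS, a ratio of 1.83 (1.70 to 1.97). S100a11, the annexin A1 partner, came next with 345 CPM (1406 counts) with IL-33 and 202 CPM (318 counts) with PBS, a ratio of 1.71 (1.51 to 1.93). The interval of S100a11 overlaps that of S100a6, and a difference between their ratios was not tested.

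S100a4, which binds nonmuscle myosin and is also known as metastasin or fibroblast-specific protein, had the lowest ratio of the 5. It was at 536 CPM (2186 counts) with IL-33 and 447 CPM (703 counts) with PBS, a ratio of 1.20 (1.10 to 1.31). S100a13, known for the non-classical release of FGF1 and IL-1 alpha, was at 242 CPM (986 counts) with IL-33 and 169.7 CPM (267 counts) with PBS, a ratio of 1.42 (1.24 to 1.64). The ratio of S100a4 thus lies below those of S100a6 and S100a11 with no overlap of the intervals, and its interval meets that of S100a10 only at the edge (1.31 against 1.30).

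Anxa1 encodes a glucocorticoid-induced annexin that acts outside the cell on formyl peptide receptors (chromosome 19, 20373428 to 20390944, minus strand). It had 193 counts, or 47.3 CPM, with IL-33 and 14 counts, or 8.90 CPM, with PBS, a ratio of 5.32 (3.09 to 9.91). The PBS value is the most thinly counted of the 20 values given for the members, and its level interval runs from 4.86 to 14.9 CPM. The receptor genes Fpr1, Fpr2 and Fpr3 had 0 counts in both libraries, which allows up to 0.735 CPM each with IL-33 and up to 1.91 CPM with PBS.

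Anxa4 encodes an annexin of intracellular and plasma membranes best known from epithelia (chromosome 6, 86736840 to 86793584, minus strand). It had 160 counts, or 39.2 CPM, with IL-33 and 147 counts, or 93.4 CPM, with PBS, a ratio of 0.420 (0.333 to 0.529). Its raw counts were close in libraries of unequal depth, and the level intervals, 33.4 to 45.8 CPM with IL-33 and 78.9 to 110 CPM with PBS, lie apart.

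The other annexins differed less. Anxa6, a large annexin with a duplicated core that is abundant in lymphocytes, was at 305 CPM (1243 counts) with IL-33 and 404 CPM (635 counts) with PBS, a ratio of 0.755 (0.685 to 0.832). Anxa2, the S100A10 partner, was at 114 CPM (466 counts) with IL-33 and 136 CPM (214 counts) with PBS, a ratio of 0.840 (0.713 to 0.992). Anxa5, the phosphatidylserine binder used to stain dying cells, was at 253 CPM (1032 counts) with IL-33 and 278 CPM (437 counts) with PBS, a ratio of 0.911 (0.814 to 1.02), whose interval holds 1.

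**Figure D2:**
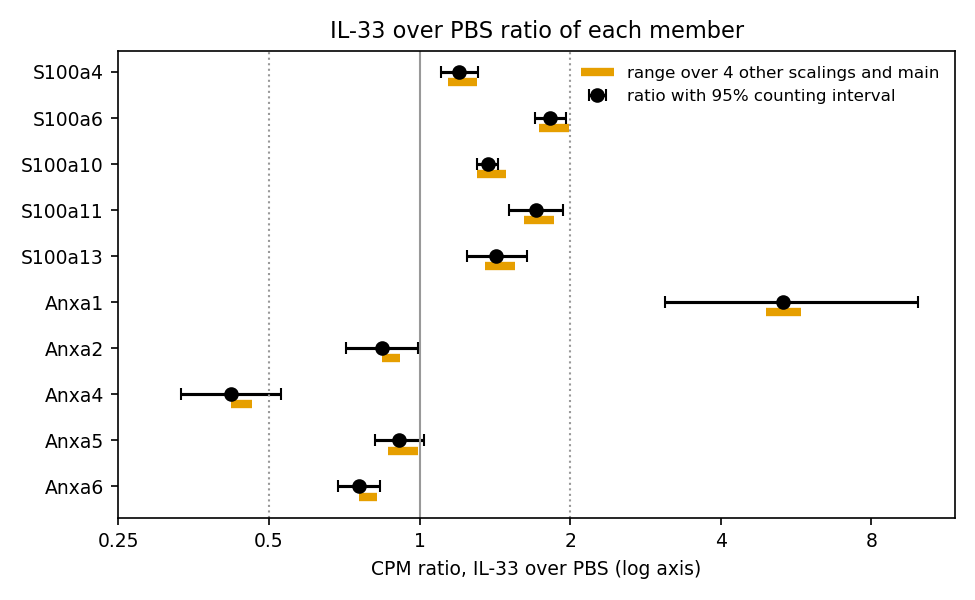
CPM ratio of the IL-33 over the PBS library for each member (log axis): black points with exact 95% counting intervals, and orange bars for the range over the main scaling and 4 others. Dotted lines mark 2-fold; Anxa1 (5.32) lies above the upper line, Anxa4 (0.420) below the lower one, and each orange bar keeps to its own side of 1.

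These differences have to be read against those of all genes. On the log2 scale of CPM plus 1, which slightly understates differences of low genes, 1 member (Anxa1, 2.29) was at least 2-fold higher with IL-33 and 1 (Anxa4, -1.23) at least 2-fold lower, while 15.5% and 16.3% of the 9005 genes over the floor were so. With 10 members, 1 in each direction is near that background and cannot be told from it. The interval of the ratio lay above 1 for 6 members and below 1 for 3, against 28.6% and 35.1% of all genes over the floor. Of the 3, Anxa2 came nearest to 1, with an upper limit of 0.992. The median log2 fold was 0.51 over the S100 members, -0.25 over the annexin members and -0.08 over all genes over the floor. Of the members, 6 stood above 0 against 45.6% of all genes. Because the members were chosen with earlier results of these data known, their contrasts with other genes, here and below, add no separate evidence.

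Scatter between the libraries shrank with expression, so each member was also set beside genes of like level. Among the 990 genes whose mean was at least 200 CPM, a class that holds all 5 S100 genes, Anxa5 and Anxa6, the central 90% of log2 folds ran from -0.69 to 0.59 and the interquartile range was -0.32 to 0.19. S100a6 (0.87) and S100a11 (0.77) lay above that 90% range, and S100a13 (0.51), S100a10 (0.45) and S100a4 (0.26) lay inside it but above the interquartile range. In this class 31.1% of genes had an interval above 1 and 43.2% below 1, and 44.3% had a log2 fold above 0. Anxa6 (-0.40) lay inside the 90% range but below the interquartile range, and Anxa5 (-0.13) lay within the interquartile range.

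Anxa1 had a mean of 28.1 CPM. Among the 2023 genes whose mean was 20 to 50 CPM, 13.1% were at least 2-fold higher with IL-33 and the central 90% of log2 folds ran from -1.74 to 1.61, below the value of 2.29 for Anxa1. Anxa4 had a mean of 66.3 CPM. Among the 2576 genes whose mean was 50 to 200 CPM, 6.48% were at least 2-fold lower and the central 90% ran from -1.10 to 0.96, above the value of -1.23 for Anxa4. Anxa2 (-0.25) lay within the interquartile range of the same class.

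**Figure D3:**
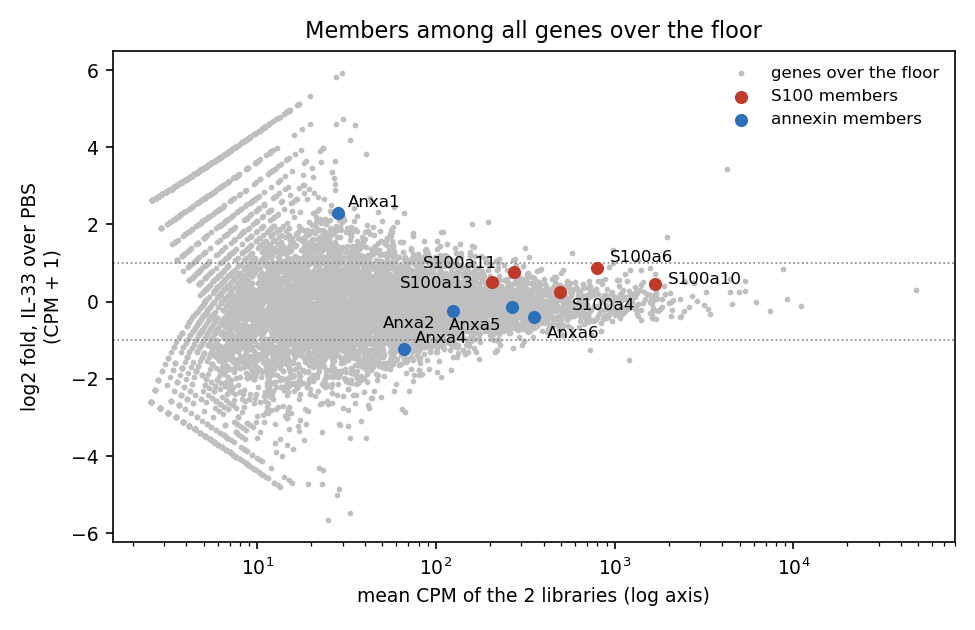
Log2 fold of IL-33 over PBS (CPM + 1) against the mean CPM of the 2 libraries (log axis) for the 9005 genes over the floor (grey), with the S100 members in red and the annexin members in blue; dotted lines mark 2-fold. The well-counted members sit in the narrow right part of the cloud, with S100a6 (0.87) at its upper side, and Anxa1 sits where the cloud is wide.

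Levels of different genes were compared per length, as CPM per kb of annotated exons, since longer transcripts yield more fragments. The S100 genes came first in both libraries, in the order S100a10, S100a4, S100a6, S100a11 and S100a13. S100a10 stood at 1611 CPM per kb with IL-33 and 1179 CPM per kb with PBS, rank 20 and rank 24 of 8915 genes with an annotated length. S100a4 was at 917 CPM per kb with IL-33 and 765 CPM per kb with PBS (ranks 43 and 45), and S100a13, the last of the 5, at 338 and 237 CPM per kb (ranks 153 and 191). By all annotated exons, S100a6 (414 CPM per kb) and S100a11 (395 CPM per kb) had overlapping intervals in the PBS library. With IL-33, S100a6 (756) stood above S100a11 (674). This near tie depends on the length used: by the longest transcript, S100a6 stood above S100a11 with PBS too (723 against 395).

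The annexins followed at lower levels per length. Anxa5 (142 CPM per kb with IL-33 and 156 with PBS) and Anxa6 (104 and 138) led them, and in the PBS library their intervals overlapped. Anxa2 was at 30.6 CPM per kb with IL-33 and 36.4 with PBS. The last 2 places were exchanged between the libraries: Anxa1 stood above Anxa4 with IL-33 (16.2 against 8.44 CPM per kb) and below it with PBS (3.06 against 20.1 CPM per kb). With the longest transcript in place of all exons, levels per length were higher for most members: S100a10 was at 2851 CPM per kb with IL-33 and 2085 with PBS, Anxa1 at 28.3 and 5.31, Anxa4 at 14.9 and 35.6, and Anxa2 at 50.1 and 59.6. On that length S100a6 (1320.4 CPM per kb) stood above S100a4 (1076) with IL-33 and, at 723, below it (897) with PBS, and in the PBS library Anxa6 (162) and Anxa5 (160.4) were nearly level.

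S100a10, Anxa6 and Anxa5 kept similar shares of the counts of their families, while S100a6, Anxa1 and Anxa4 shifted by more percentage points. S100a10 gave 47.5% of the S100 counts with IL-33 and 50.8% with PBS, S100a6 gave 25.2% and 20.1%. Anxa6 gave 40.2% of the annexin counts with IL-33 and 43.9% with PBS, and Anxa5 gave 33.4% and 30.2%. The share of Anxa1 was 6.24% with IL-33 and 0.968% with PBS, and that of Anxa4 was 5.17% and 10.2%.

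For the pairs S100a10 with Anxa2 and S100a11 with Anxa1, the S100 transcript was in large excess. Per kb, S100a10 was 52.6 times as high as Anxa2 with IL-33 and 32.3 times with PBS, and this ratio differed 1.63-fold between the libraries (1.37 to 1.93). S100a11 was 41.5 times as high as Anxa1 with IL-33 and 129 times with PBS, a ratio between the libraries of 0.321 (0.170 to 0.561). These excesses depend on the length used: with the longest transcript, S100a11 was 23.9 times as high as Anxa1 with IL-33 and 74.4 times with PBS, and S100a10 was 56.9 times as high as Anxa2 with IL-33 and 34.96 times with PBS. The ratios between the libraries do not depend on that length or on a scaling that applies the same factor to all genes of a library. Centring genes within groups of like length, used below, can change them. These 2 pairs differed in opposite directions, and the second rests on 14 counts of Anxa1 with PBS. The other S100 and annexin pairings computed all had a higher ratio with IL-33. Between the libraries, S100a11 to Anxa2 differed 2.03-fold, S100a6 to Anxa2 2.17-fold, S100a4 to Anxa2 1.43-fold and S100a11 to Anxa6 2.26-fold. Per kb, S100a11 was 6.49 times as high as Anxa6 with IL-33 and 2.87 times with PBS, a smaller excess.

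All 5 S100 genes lie on chromosome 3, in the gene cluster that gives the family its S100a names. Of the 14 S100a genes of that chromosome in the table, 12 span 185 kb from S100a1 to S100a9, and S100a11 and S100a10 lie 2825 kb beyond. Of the 14 genes, 7 had 0 counts in both libraries, a share like that of the whole table (11808 of 23337 rows). Among the 7 were S100a5, which lies within the 6.84 kb between S100a4 and S100a6, and S100a8 and S100a9, the alarmins of neutrophils. Of the non-members, S100a1 had 25 counts with IL-33 and 7 with PBS, and S100a14 had 1 and 0. S100a4 and S100a6, though close, differed: the ratio of S100a6 to S100a4 was 1.52 times as high with IL-33 (1.36 to 1.70).

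**Figure D4:**
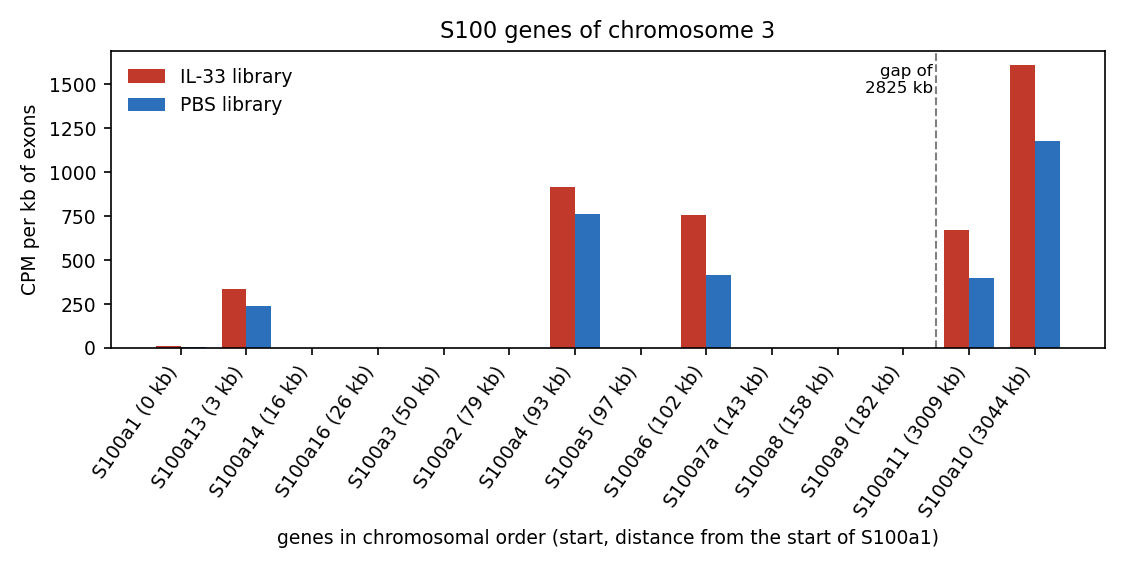
CPM per kb of exons for the 14 S100a genes of chromosome 3 in chromosomal order, with the start of each in kb from the start of S100a1; red bars are the IL-33 library and blue bars the PBS library, and the dashed line marks a gap of 2825 kb. The 5 members stand above neighbours at or near 0, and each is higher with IL-33. As the members were chosen with earlier results of these data known, their contrast with the neighbours adds no separate evidence.

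Counting could not be equally specific for all members, since the treatment of reads that fit several genes is not given in the sources used here. Of the 25-base stretches of the S100a11 transcript, the read length of the study, 50.7% also occur in transcripts of other genes, mostly the processed pseudogene Gm12854. For S100a4 the share was 58.6%, all with Gm42674, a gene model that overlaps it on the same strand. It was 9.04% for Anxa4, 3.90% for Anxa2, 2.72% for S100a10 and 0% for S100a6, S100a13, Anxa1, Anxa5 and Anxa6. The values of S100a11 and S100a4 are therefore less certain, and Gm12854 and Gm42674 are not rows of the table.

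The S100 genes are short, and the libraries differed with length. Among 3542 genes of known length whose mean was at least 50 CPM, the log2 fold was lower at greater exon length (Spearman rho -0.16 across genes, which are not independent replicates). The median log2 fold was 0.07 in the shortest of 5 length groups of equal number, where all 5 S100 genes (511 to 1367 bases) and Anxa5 lie, and -0.18 in the longest. All 5 S100 genes stood above the median of that group, by 0.80 for S100a6, 0.70 for S100a11, 0.44 for S100a13, 0.38 for S100a10 and 0.19 for S100a4. Anxa4 stood at -1.13 relative to the median of its group. Anxa1, with a mean of 28.1 CPM, is not among the 3542 genes. It stood 2.38 above the median of the group that spans its length, whose genes are better counted.

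**Figure D5:**
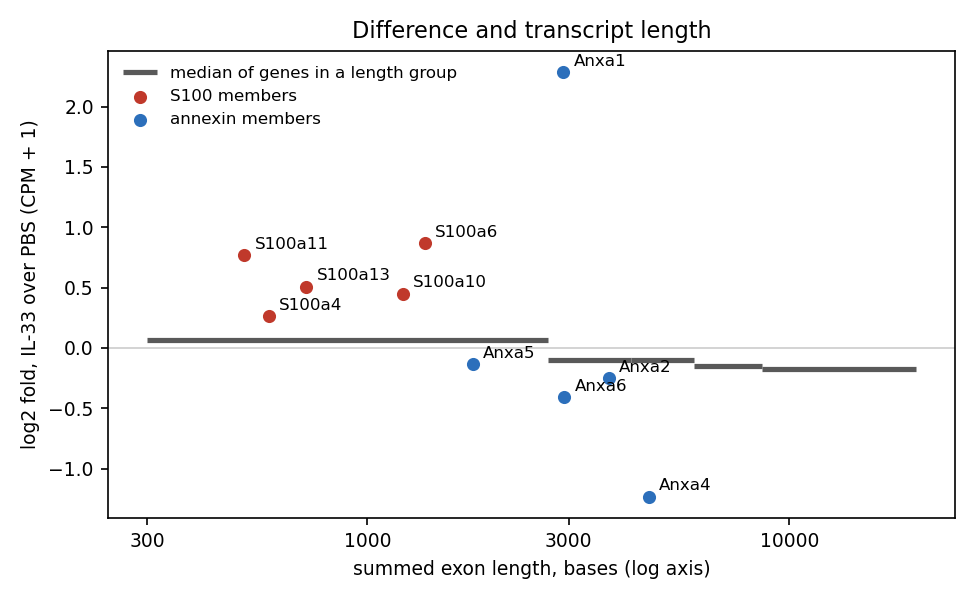
Log2 fold of IL-33 over PBS (CPM + 1) against summed exon length in bases (log axis); red points are S100 members, blue points annexin members, and grey bars the median of well-counted genes (mean of at least 50 CPM) in each of 5 length groups, cut at the sides of the plot. The S100 genes lie above the bar of the shortest group, at 0.07, and Anxa4 lies below the bars at -1.23.

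The rest of the 2 families was at or near 0 counts, apart from Anxa7. The members were chosen with earlier results of these data known, so this contrast adds no separate evidence. In the whole table, 11808 of 23337 rows had 0 counts in both libraries. Of 18 other S100-type genes in the table, 16 had 0 counts in both libraries, and S100a1, at 6.13 CPM with IL-33 and 4.45 CPM with PBS, alone passed the floor. Of 7 other annexins, 5 had 0 counts in both, Anxa11 had 6 counts with IL-33 and 3 with PBS, and Anxa7, a vesicle-fusing annexin, alone passed the floor. Anxa7 was at 49.7 CPM with IL-33 and 61.0 CPM with PBS, a ratio of 0.815 (0.637 to 1.05).

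Of 16 genes of known partners, 8 passed the floor, with a median log2 fold of -0.07. The log2 fold was above 0 for 2 of the 8 and below 0 for 6, while 45.6% of all genes over the floor stood above 0. Of the 8, 1 was 2-fold higher and 0 lower, against 15.5% and 16.3% of all genes over the floor. Ahnak, a giant scaffold that binds the S100A10 and annexin A2 complex, was at 1385 CPM with IL-33 and 1845 CPM with PBS, a ratio of 0.751 (0.718 to 0.785). Itgb1, the beta-1 integrin chain, was at 426 CPM with IL-33 and 280.2 CPM with PBS, a ratio of 1.52 (1.37 to 1.69). Sugt1, a chaperone partner of S100A6, was at 157 CPM with IL-33 and 190.0 CPM with PBS, and S100pbp, at 43 counts with IL-33 and 7 with PBS, had a ratio of 2.37 (1.06 to 6.24). Of the 10 receptor genes, Havcr2 (TIM-3) alone passed the floor, at 55.9 CPM with IL-33 and 72.4 CPM with PBS, a ratio of 0.771 (0.613 to 0.974).

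Among 12 calmodulin and related genes, 0 were 2-fold higher or lower, against 15.5% and 16.3% of all genes over the floor. The 12 genes had a median log2 fold of -0.14. The interval of the ratio lay above 1 for 2 of them and below 1 for 8, against 28.6% and 35.1% of all genes. Calm3, a calmodulin gene, had a ratio of 0.596 (0.509 to 0.698), and the calcineurin subunit genes Ppp3r1 and Ppp3cb had ratios of 0.643 and 1.38. Efhd2, an EF-hand protein of lymphocytes, had a ratio of 0.755 (0.588 to 0.976). Of 7 penta-EF-hand and calpain genes over the floor, Sri (sorcin) was at 0.661 (0.599 to 0.729), the calpain gene Capn2 at 0.780 and Pef1 at 1.34. Capn1, at 21 counts with IL-33 and 3 with PBS, was the 1 that passed 2-fold, with an interval of 0.806 to 14.1.

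Membrane repair draws on annexins and on ESCRT proteins, which pinch off damaged membrane. Of 9 such genes over the floor, 2 were 2-fold higher and 1 lower, against 15.5% and 16.3% of all genes over the floor. Vps4a, the ATPase that recycles ESCRT, was at 48.5 CPM with IL-33 and 10.8 CPM with PBS, a ratio of 4.49 (2.73 to 7.87), and the ESCRT-III subunit gene Chmp1a had a ratio of 2.40 (1.72 to 3.42). Chmp6 had a ratio of 0.402 (0.218 to 0.746) and Chmp3 one of 0.654 (0.553 to 0.774). The median was -0.14.

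Genes that accompany S100 genes in effector T cells had a median log2 fold of 0.30 over 20 genes, all over the floor. Of these 20, 1 was at least 2-fold higher and 0 lower, against 15.5% and 16.3% of all genes over the floor. Their intervals lay above 1 for 11 and below 1 for 5, against 28.6% and 35.1% of all genes over the floor and 31.1% and 43.2% of those at 200 CPM or more. Crip1, a small LIM protein gene, was at 1836 CPM with IL-33 and 868 CPM with PBS, a ratio of 2.12 (2.00 to 2.24). Cd52, a small surface glycoprotein gene, had a ratio of 2.00 (1.87 to 2.14), the actin-sequestering thymosin gene Tmsb4x 1.78 (1.75 to 1.82), and Id2, an inhibitor of E proteins, 1.77 (1.62 to 1.94). On the other side stood Lgals3, the galectin-3 gene, at 0.581 (0.464 to 0.730), the lamin A gene Lmna at 0.712, Ahnak at 0.751 and the integrin gene Itgb7 at 0.806. The list was chosen with earlier results of these data known, so its direction adds no separate evidence.

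Markers of other cell types were low but not equal in the libraries. Beside the low Foxp3 counts given above, the T and Treg cell markers Ctla4 (6186 CPM with IL-33 and 6246 CPM with PBS) and Ikzf2 (1681 and 1925 CPM) were abundant in both. The 8 fibroblast markers, a cell type rich in S100A4, S100A6 and annexins, summed to 0 CPM with IL-33 and 86.4 CPM with PBS, with Col3a1 at 0 and 78 counts and Postn at 0 and 32 counts, and Col1a1, Col1a2, Lum and Col6a1 at 0 in both. The 11 monocyte and macrophage markers in the table, cells also rich in annexins, summed to 39.2 CPM with IL-33 and 66.1 CPM with PBS. By mean level they were led by Lyz2 (19.1 and 38.8 CPM) and Itgam (16.2 and 7.63 CPM). Ms4a7, at 0 CPM with IL-33 and 15.9 CPM with PBS, stood above Itgam in the PBS library, and Cd68 and Fcgr1 were at 0 in both. Both sums were lower with IL-33, where the S100 genes were higher and Anxa4 lower, and their part in these differences was not tested.

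Fewer counts came from the remaining types. Of 7 neutrophil markers in the table, 6 were at 0 in both libraries, S100a8 and S100a9 among them, and Csf3r had 18 counts with IL-33 and 9 with PBS. Dendritic cell markers summed to 21.6 CPM with IL-33 and 21.0 CPM with PBS, with Xcr1 at 42 and 12 counts and Itgax at 0 and 19 counts. B cell markers, led by Cd79b, summed to 32.3 and 26.7 CPM, CD8 and NK cell markers, led by Cd8b1, to 21.8 and 13.3 CPM, endothelial markers, led by Cdh5, to 0.735 and 6.99 CPM, and muscle markers, led by Acta1, to 0.490 and 2.54 CPM in the IL-33 and PBS libraries.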

How the data were processed

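Poly(A) RNA of sorted Treg cells was converted to cDNA, amplified, fragmented with a transposon and sequenced as paired 25 bp reads, per the labels' protocols. The authors deposited a table of raw, whole-number counts with 23337 gene symbols and 2 libraries. TopHat2 2.0.10, Cufflinks 2.2.1 and the mm10 genome are named, per the submitters' processing notes. What each did, how reads were counted, and against which annotation and strand, is not given in the sources used here. No molecular identifiers are named, so reads are not independent molecules.

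CPM were counts over the library total (4080791 in the IL-33 library, 1573707 in the PBS library). Levels have exact Poisson intervals and ratios exact conditional (Clopper-Pearson) 95% intervals. A ratio of ratios has the exact conditional interval of the odds ratio. As each group is 1 library, nothing was tested and no p-value is given. Genes with at least 5 CPM in 1 library were compared at 2-fold on log2 of CPM plus 1. Lengths and positions came from GENCODE M21 (GRCm38, the assembly that mm10 names): 20929 symbols matched directly, 1918 through a synonym, and 490 stayed unmatched. Named genes are the members, family genes over the floor and the 4 of each partner list farthest from 0 in log2 fold. The 2 highest markers of each other cell type are named too. Fpr1 to Fpr3, Anxa11, S100a14, Foxp3, Lgals3, Lmna, Itgb7, Ms4a7 and genes listed at 0 were named after their values were seen. The members and lists were chosen with earlier results of these data known. The computation was tested on simulated data. Tools were Python 3.11.15, numpy 2.4.6, pandas 2.3.3, scipy 1.17.1, matplotlib 3.10.9 and, for TMM factors alone, edgeR 4.0.16 in R 4.3.3. Alternatives changed the scaling, pseudocount, floor, fold threshold and length.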

Additional observations from a re-analysis of the deposited data

How the results depend on the processing

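Each member stayed on the same side of 1 under TMM, median-of-ratios scaling, a total without the 10 highest genes and centring within 5 length groups, though Anxa5 came to 0.990 and has no settled direction. Anxa2 came to 0.913 under TMM. As its interval in the main scaling already ends at 0.992, counting error and scaling together leave its direction unsettled too. TMM adds 0.12 to every log2 fold and median-of-ratios scaling 0.11. Over these settings S100a4 ranged from 1.14 to 1.30, S100a6 from 1.73 to 1.99, Anxa1 from 4.93 to 5.78 and Anxa4 from 0.420 to 0.463. The median log2 fold ranged from 0.43 to 0.63 over the S100 members and from -0.25 to -0.13 over the annexins. Counts of members 2-fold higher and lower stayed at 1 and 1, except at a threshold of 1.5-fold, where 3 were higher (Anxa1, S100a6 and S100a11). Genes at least 2-fold higher numbered 2133 with no floor, 595 with a floor of 20 CPM and 2116 at 1.5-fold, and genes lower 737 with that floor and 2465 at 1.5-fold, as fewer or more genes were tested or the threshold was lower. Depth limits Anxa1, with 14 counts in the PBS library. No paired analysis was possible because each group held 1 library.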
